A study of Mus musculus with 9 samples.

Results

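Cluster a (miR-23a, miR-27a and miR-24-2) and its relative cluster b (miR-23b, miR-27b and miR-24-1) encode the same 3 miRNA families, and 9 of their mature arms were followed in exosomes from TCMK-1 cells, a mouse kidney tubular epithelial line. The arms were taken by name from the 1978 mature miRNAs listed, and all 9 passed the filter on low counts. They are mmu-miR-23a-3p, mmu-miR-23b-3p, mmu-miR-27a-3p, mmu-miR-27a-5p, mmu-miR-27b-3p, mmu-miR-27b-5p, mmu-miR-24-3p, mmu-miR-24-1-5p and mmu-miR-24-2-5p, named without the species prefix from here on. LV-NC exosomes came from cells with the empty control lentivirus in normal culture. H/R-LV-NC exosomes came from cells with the same control virus after hypoxia-reoxygenation (H/R), in which 1% O2 for 24 h was followed by 21% O2 for 12 h. H/R-LV-BMAL1 exosomes came from cells with a lentivirus that overexpressed BMAL1, a circadian transcription factor, after the same H/R. All groups thus carried a lentivirus, at a multiplicity of infection (infecting virus particles added per cell) of 100, and no library came from BMAL1 cells without H/R. Each group had 3 libraries, and nothing in the sources says that they came from separate cultures, so the p-values speak only to the spread among these 9 libraries, and that spread may be technical.

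A miRNA gene makes a hairpin, and cutting of the hairpin leaves a 5p and a 3p arm. Usually 1 arm is loaded into an Argonaute protein and kept, while the other is degraded, so the balance of the arms in a library differs between hairpins. A mature miRNA recognises its targets mainly by its seed, bases 2 to 8. The miR-23, miR-27 and miR-24 genes of a cluster are transcribed together, and they have been linked to fibrosis, angiogenesis, lipid metabolism and muscle and immune cell differentiation. The study selected miR-27a-3p from these same libraries, so its values here are no independent evidence of its change.

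The mature sequences decide how well related arms can be told apart, and they are shown for the arms on which the results turn, from RefSeq on GRCm38.p6, with the seed in capitals.
miR-27a-3p: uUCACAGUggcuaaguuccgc
miR-27b-3p: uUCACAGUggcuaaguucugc
miR-27a-5p: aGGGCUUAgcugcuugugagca
miR-27b-5p: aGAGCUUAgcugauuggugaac
miR-23a-3p: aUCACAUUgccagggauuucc
miR-24-3p: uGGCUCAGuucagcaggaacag
miR-24-1-5p: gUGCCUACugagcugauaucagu
miR-24-2-5p: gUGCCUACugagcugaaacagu
Of the 9 arms, 8 were matched in the RefSeq table, all but miR-23b-3p. The miR-27 3p arms share the seed UCACAGU, which no other of the 1679 miRNAs matched in that table had. They are both 21 bases long and differ by 1 base, U19C from miR-27b-3p to miR-27a-3p, counted from 1 at the 5′ end. The 5p arms of the same hairpins differ at 8 of 22 bases, and 1 of these differences, G3A from miR-27a-5p to miR-27b-5p, lies in the seed. miR-24-1-5p and miR-24-2-5p share the seed UGCCUAC and differ at 5 positions over the 22 bases that both have. Thus the 5p arms of the miR-27 hairpins are easier to tell apart by sequence than the 3p arms. No source used here says how reads that match several miRNAs were counted, so the split between miR-27a-3p and miR-27b-3p is uncertain, and the part of counting in it was not tested.

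On GRCm38, Mir23a (84208518 to 84208592), Mir27a (84208672 to 84208758) and Mir24-2 (84208815 to 84208921) lie on the plus strand of chromosome 8 within 404 bases. Mir23a and Mir27a overlap no other gene of GENCODE M21, and the last bases of Mir24-2 overlap the lincRNA gene Gm26532. Mir23b (63300484 to 63300557), Mir27b (63300712 to 63300784) and Mir24-1 (63301208 to 63301275) lie on the plus strand of chromosome 13 within 792 bases, inside the protein-coding gene 2010111I01Rik on the same strand and Fancc on the opposite strand. Mir23b overlaps no exon of these host genes, whereas Mir27b and Mir24-1 overlap exons of 2010111I01Rik. miR-27a-3p occupies 84208727 to 84208747 and miR-27b-3p 63300760 to 63300780. miR-24-3p is the same 22 bases in both Mir24-1 and Mir24-2 and is counted once, so its level cannot be assigned to either cluster. Mir3074-1 and Mir3074-2 lie opposite Mir24-1 and Mir24-2, and no source used here says whether counting used strand.

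The libraries were counted by unique molecular identifiers (UMIs), which count the PCR copies of 1 molecule once, and held 807158 to 1447040 miRNA UMIs with the control virus and 3357851 to 4057046 with BMAL1. CPM are the UMIs of a miRNA per 1000000 miRNA UMIs of the library. For comparisons of levels, CPM were scaled by TMM, a method that treats most miRNAs as not changed, with factors of 1.03 to 1.07 for LV-NC, 1.05 to 1.71 for H/R-LV-NC and 0.559 to 0.940 for H/R-LV-BMAL1. The library H/R-LV-BMAL1 1 stood apart from its group, its log2 deviations having an SD of 0.744 where the other libraries had 0.428 to 0.543. All 4 listed kidney tubule miRNAs had UMIs in every library, led by miR-30a-5p at a mean of 7803 CPM, but miR-204-5p was at 10.2 CPM and the 5 miRNAs of the epithelial miR-200 family together at 22.9 to 112 CPM. Of the other lists, the 5 blood and macrophage miRNAs summed to 74.7 to 234 CPM, the liver miRNA miR-122-5p had 54.5 to 176 CPM, and the 3 muscle miRNAs were nearly all miR-206-3p, at a mean of 2781 CPM. Some lists moved with the groups. The 2 neural miRNAs, mainly miR-9-5p, summed to 11.3 to 19.2 CPM for LV-NC, 16.4 to 338 CPM for H/R-LV-NC and 151 to 2720 CPM for H/R-LV-BMAL1. The kidney tubule list summed to 5762 to 8625 CPM with the control virus and to 9678 to 11220 CPM with BMAL1, higher in every BMAL1 library. The blood and macrophage list separated all groups, at 119 to 144 CPM for LV-NC, 153 to 234 CPM for H/R-LV-NC and 74.7 to 114 CPM for H/R-LV-BMAL1. miR-122-5p had 115.6 to 176 CPM for LV-NC, above 54.5 to 115.4 CPM for H/R-LV-NC and 81.8 to 105 CPM for H/R-LV-BMAL1. The epithelial list was at 26.5 to 47.0 CPM for LV-NC, 37.2 to 112 CPM for H/R-LV-NC and 22.9 to 36.6 CPM for H/R-LV-BMAL1. The part of these miRNAs in the results was not tested.

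The 9 arms together took 1.11% to 1.35% of the UMIs of LV-NC libraries, 1.10% to 1.25% after H/R with the control virus and 1.44% to 1.58% after H/R with BMAL1. The 3p arms of miR-23a, miR-24, miR-27b and miR-23b made up nearly all of this. miR-23a-3p had a mean of 4746 ± 715 CPM over the 9 libraries (SD, n = 9), miR-24-3p 3967 ± 465, miR-27b-3p 2792 ± 431 and miR-23b-3p 1375 ± 196. They ranked 32, 36, 38 and 60 of 1978 miRNAs and kept this order in 9 of 9 libraries. The other 5 arms lay far below them. miR-27a-5p had 89.5 ± 20.2 CPM (SD, n = 9), rank 302. miR-24-1-5p had 24.9 ± 36.2 CPM, and miR-27a-3p had 20.7 ± 7.87 CPM, rank 934. miR-24-2-5p and miR-27b-5p were both at 12.3 CPM, with SDs of 7.84 and 2.73. Among these last 4 arms the ranges over libraries overlapped, and their order changed from library to library.

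**Figure D1:**
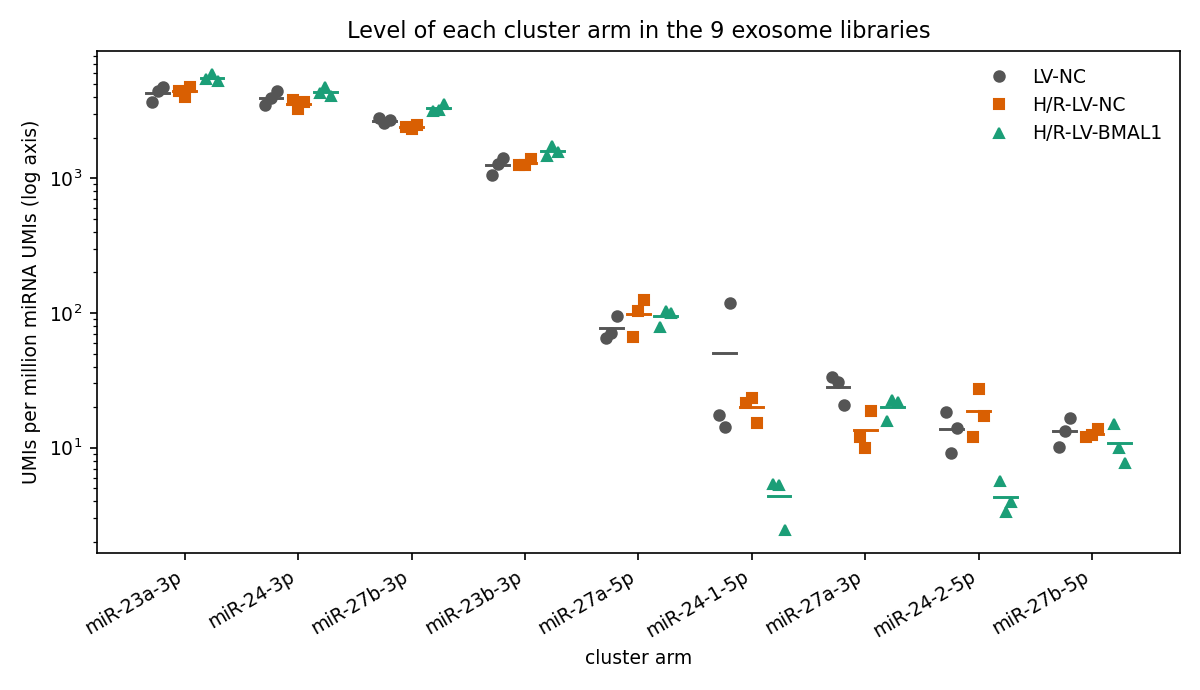
CPM of each of the 9 arms (log axis) in the 9 exosome libraries, with a point for each library and a bar for the mean of each group. The 3p arms of miR-23a, miR-24, miR-27b and miR-23b sit above 1000 CPM in every library, whereas miR-27a-3p lies between 9.91 and 33.7 CPM, below miR-27a-5p at 65.3 to 124 CPM.

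The hairpins of the clusters differed in which arm was found in exosomes. In 5 of the 6 hairpins the 3p arm was the more abundant, by 41.7 times in miR-23a, 53.7 times in miR-23b, 159 times in miR-24-1, 227 times in miR-27b and 322 times in miR-24-2, as ratios of mean CPM. The miR-24 ratios both use the shared miR-24-3p and are therefore upper limits for each hairpin alone. miR-27a was the exception, with its 5p arm 4.32 times as abundant as its 3p arm. This rests on a mean of 40.2 UMIs of miR-27a-3p, beside 5956 of the nearly identical miR-27b-3p. How reads were split between these 3p arms is not known, so the 5p excess of miR-27a is uncertain too. Over all 637 hairpins with both arms tested, the 5p arm was the more abundant in 52.9%, and the median difference between the arms was 2.38 times. The arms of miR-27b were farther apart than those of 95.6% of hairpins, and the arms of miR-27a than those of 68.9%.

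The 5p excess of miR-27a, as the reads were counted, was seen in 9 of 9 libraries. miR-27a-5p and miR-27a-3p had 64 and 33 UMIs, 69 and 30, and 108 and 24 in the LV-NC libraries, which are ratios of 1.94, 2.30 and 4.50. After H/R with the control virus the counts were 89 and 16, 83 and 8, and 179 and 27, with ratios of 5.56, 10.4 and 6.63. After H/R with BMAL1 they were 266 and 53, 372 and 82, and 406 and 89, with ratios of 5.02, 4.54 and 4.56. All 3 ratios after H/R with the control virus lay above the other 6, and the H/R-LV-BMAL1 ratios lay closest together. The highest ratio rests on 8 UMIs of miR-27a-3p, and its exact 95% interval ran from 502.8 to 2483 UMIs of miR-27a-5p per 100 of miR-27a-3p, from counting error only.

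miR-27b showed the opposite balance with far larger counts of its 3p arm. For miR-27b-3p, UMIs numbered 2737, 2497 and 3075 in normal culture, 3204, 1865 and 3575 after H/R, and 10599, 11552 and 14502 after H/R with BMAL1. For miR-27b-5p, in the same order, the groups held 10, 13 and 19, then 16, 10 and 20, and last 50, 36 and 31 UMIs. For every 100 UMIs of miR-27b-3p there was thus less than 1 UMI of miR-27b-5p in each library, between 0.214 and 0.618.

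The cluster a and cluster b arms were next set against each other within each library, where a common factor of depth or scaling cancels. miR-23a-3p and miR-23b-3p held a nearly fixed ratio, with 3.22 to 3.70 UMIs of miR-23a-3p for each UMI of miR-23b-3p over the 9 libraries. The means were 3.44 ± 0.0782 in LV-NC, 3.39 ± 0.161 after H/R and 3.52 ± 0.161 in H/R-LV-BMAL1 (SD, n = 3). miR-23b-3p had no match in the RefSeq table, so its sequence was not compared with that of miR-23a-3p. How reads that match both would be counted is not known either, and the part of counting in this ratio was not tested. The miR-27 hairpins gave opposite answers by arm. By the 5p arms the a form was in excess, with 5.31 to 13.1 UMIs of miR-27a-5p for each UMI of miR-27b-5p. By the 3p arms the b form was in excess, with only 0.429 to 1.21 UMIs of miR-27a-3p for every 100 of miR-27b-3p. Neither order changed in any library. miR-24-1-5p and miR-24-2-5p were at similar counts, with ratios of 0.625 to 1.81 in 8 libraries and 8.56 in LV-NC 3, where miR-24-1-5p had 137 UMIs against 10 to 29 elsewhere. In that library miR-23a-5p was also high, with 350 UMIs against 86 and 88 in the rest of its group.

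**Figure D2:**
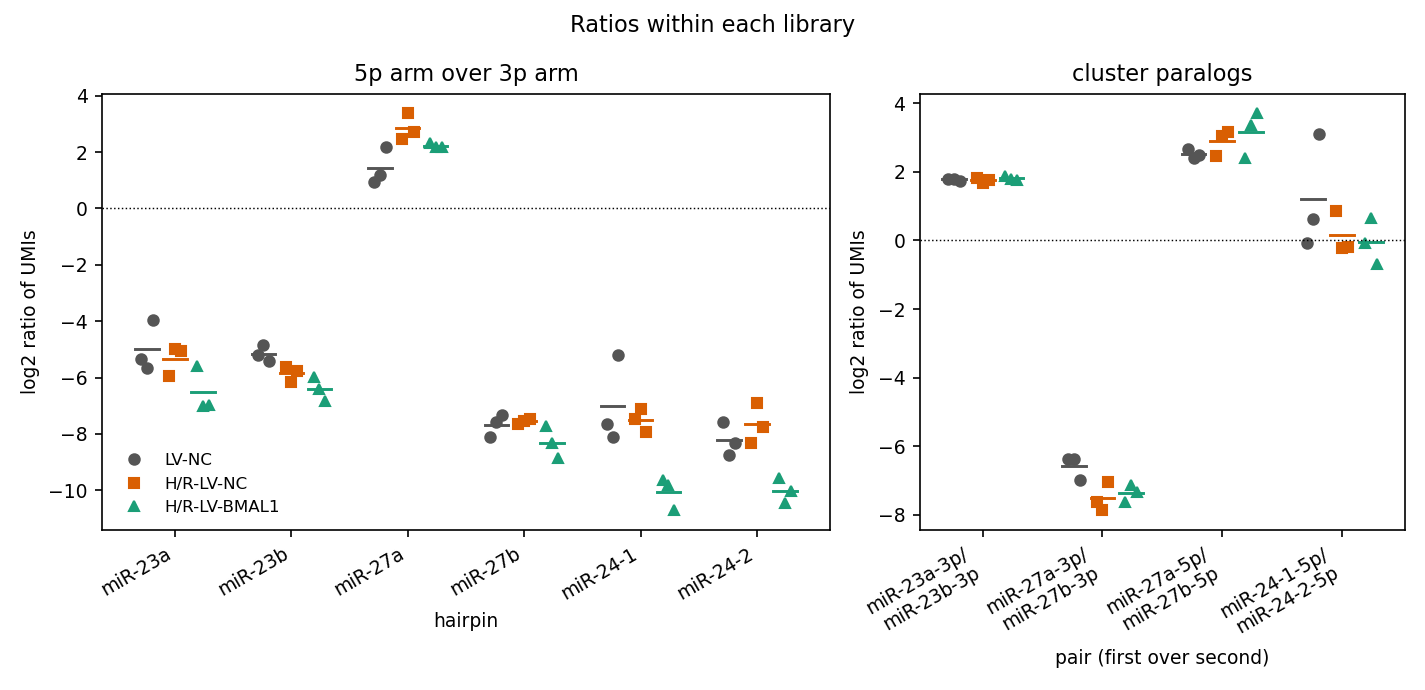
Log2 ratios of UMIs within each library, for the 5p over the 3p arm of the 6 cluster hairpins (left) and for 4 pairs of related arms, the first named over the second (right), with a point for each library, a bar for the mean of the log2 ratios of each group and a dotted line at equal counts. miR-27a is the hairpin above the line on the left, at ratios of 1.94 to 10.4, and on the right the 3p and 5p arms of miR-27a and miR-27b lie on opposite sides of it.

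Other nearly identical miRNAs give a scale for the miR-27 3p arms. Only the 1679 listed miRNAs matched in the RefSeq table were searched, for pairs of equal length that differ by 1 base. With the more abundant at a mean of at least 1000 UMIs, there were 12 pairs. miR-23b-3p had no match, so miR-23a-3p and miR-23b-3p could not be among them. miR-27a-3p, at 0.675% of miR-27b-3p by mean UMIs, was the lowest of the 12, followed by miR-10b-5p at 0.732% of miR-10a-5p. The highest was let-7b-5p at 95.5% of let-7c-5p, and the median was 23.9%. By mean UMIs every other pair of the 12 was thus closer in count than the miR-27 3p arms. By library, however, miR-27a-3p ran from 0.429% to 1.21% of miR-27b-3p, inside the 0.389% to 1.59% of miR-10b-5p to miR-10a-5p.

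**Figure D3:**
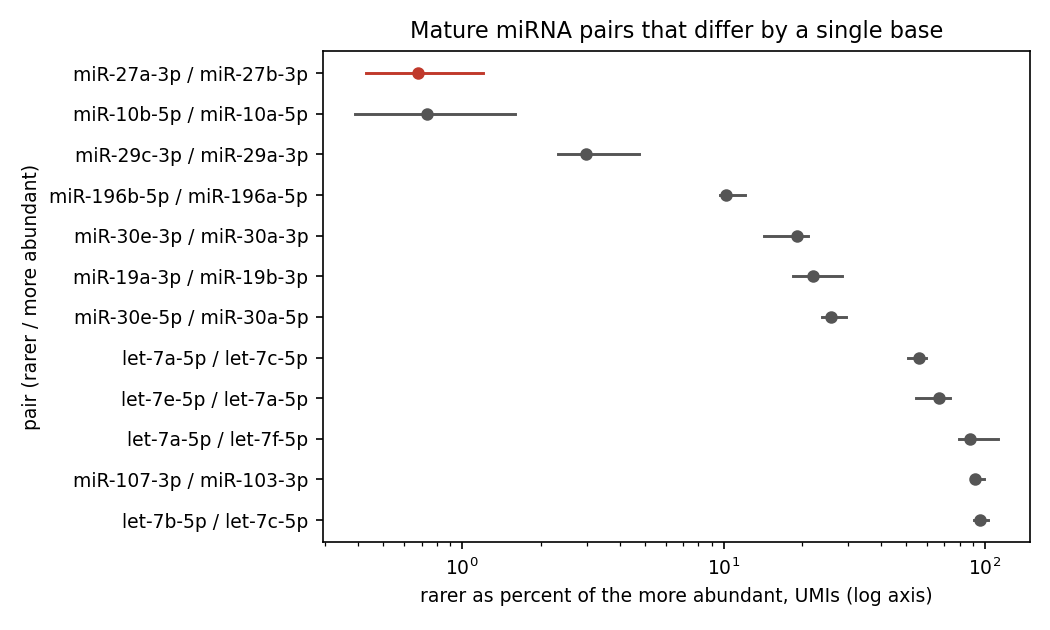
The rarer miRNA of each pair as a percent of the more abundant one (log axis), for 12 pairs of mature miRNAs that differ by a single base, among those matched in the RefSeq table. Points are ratios of mean UMIs, lines run from the lowest to the highest of the 9 libraries, and miR-27a-3p with miR-27b-3p (red) is lowest, at 0.675%.

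The first comparison, H/R against normal culture with the control virus, asks what H/R did to the exosomal arms. None of the 9 arms was called at an adjusted p under 0.05 by edgeR's quasi-likelihood test, and of all 1682 miRNAs tested 0% were called, with 121 (7.19%) at an unadjusted p under 0.05, among them miR-27a-3p and miR-24-1-5p of the 9 arms, and 2 called by DESeq2, neither of them an arm of the clusters. miR-27a-3p had 27.3 ± 6.87 CPM scaled by TMM in LV-NC and 10.7 ± 4.58 after H/R (SD, n = 3), and these groups did not overlap. Its log2 fold change was -1.33 (standard error 0.445, unadjusted p = 0.012 and adjusted p = 0.646 from edgeR). miR-27b-3p, at 2559 ± 133 and 1862 ± 469 CPM scaled by TMM, did not overlap either, with a log2 fold change of -0.46 (adjusted p = 0.713 from edgeR). The other 7 arms overlapped between the groups. miR-24-1-5p had the largest log2 fold change of the 9 arms in size, -1.63 (unadjusted p = 0.0359 and adjusted p = 0.646 from edgeR), which was -0.0028 without LV-NC 3. Groups without overlap were thus found for 2 of the 9 arms, both lower, and for 13.7% of all miRNAs tested, 6.36% in the lower direction.

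Within libraries, the 2 ratios that hold miR-27a-3p also separated after H/R, and both depend on the uncertain split of reads between the miR-27 3p arms. The 5p/3p ratio of miR-27a had a fitted log2 difference of 1.39 (2.63 times, 95% interval 1.27 to 5.42, unadjusted p = 0.0138 and adjusted p = 0.802 from edgeR over 637 hairpins). The ratio of miR-27a-3p to miR-27b-3p was 1.21, 1.20 and 0.780 per 100 in LV-NC and 0.499, 0.429 and 0.755 per 100 in H/R-LV-NC. The groups therefore missed each other narrowly, through LV-NC 3 and H/R-LV-NC 3. The fitted log2 difference was -0.89 (0.539 times, 95% interval 0.352 to 0.827, unadjusted p = 0.0095 and adjusted p = 0.648 from edgeR over 254 pairs). The share of miR-27a-3p in the miR-27 3p arms was 1.05% ± 0.240 in LV-NC and 0.558% ± 0.170 after H/R (SD, n = 3). The exact Clopper-Pearson 95% intervals of LV-NC 3, 0.497% to 1.15%, and H/R-LV-NC 3, 0.495% to 1.09%, nearly coincide.

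No ratio was called in this comparison. Among the arm ratios 0 of 6 passed edgeR's test, with 0% of all hairpins called. An unadjusted p under 0.05 was reached by 1 of the 6 and by 5.02% of all hairpins. Among the paralog ratios 0 of 4 passed, with 0% of all pairs called, and an unadjusted p under 0.05 was reached by 1 of the 4 and by 6.3% of all pairs. limma on log2 ratios called 0 of either. The ratio of miR-23a-3p to miR-23b-3p had a log2 difference of -0.02 with a 95% interval of -0.25 to 0.22. The arm ratio of miR-23b had -0.68 with no overlap between the groups. Groups without overlap were found for 1 arm ratio that was higher (miR-27a) and 1 that was lower (miR-23b), beside 11.9% of all hairpins, 5.65% higher and 6.28% lower. They were found for 1 paralog ratio, lower, beside 9.45% of all pairs, 6.3% lower.

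Ratios to neighbours in the same cluster were also taken. For every 100 UMIs of miR-23a-3p there were 0.684 ± 0.239 UMIs of miR-27a-3p in LV-NC and 0.302 ± 0.0788 after H/R (SD, n = 3), with no overlap. For every UMI of miR-23b-3p there were 2.18 ± 0.409 UMIs of miR-27b-3p in LV-NC and 1.84 ± 0.0604 after H/R, which all but touched. For every UMI of the miR-23 3p arms together there was 0.719 ± 0.0260 UMI of miR-24-3p in LV-NC, 0.627 ± 0.0356 after H/R and 0.611 ± 0.0102 in H/R-LV-BMAL1, so that LV-NC was above both H/R groups in every library. These ratios were described and not tested.

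The second comparison, of H/R-LV-BMAL1 with H/R-LV-NC, asks what BMAL1 overexpression did under H/R. By edgeR's test 1 of the 9 arms passed, miR-27b-3p, which rose. Whether it differed from the other 3p arms was not tested. It had 2268, 1349 and 1969 CPM scaled by TMM after H/R with the control virus and 3358, 4345 and 6400 after H/R with BMAL1, with no overlap. By edgeR's quasi-likelihood test the log2 fold change was 1.34 with a standard error of 0.305 and an adjusted p of 0.0455, or 2.52-fold with a 95% interval of 1.59 to 4.01. Of all miRNAs tested, 2.38% were called, 2.14% as higher in H/R-LV-BMAL1, and 1 of 9 arms is too few to set apart from this background. Between the same groups the neural list ranged over 16.4 to 338 CPM with the control virus and 151 to 2720 CPM with BMAL1. The kidney tubule list ranged over 6707 to 6941 CPM and 9678 to 11220 CPM. Lower with BMAL1 were the blood and macrophage list, at 153 to 234 CPM and 74.7 to 114 CPM, and the epithelial list, at 37.2 to 112 CPM and 22.9 to 36.6 CPM. The part of these lists in the result was not tested. The call was near the threshold. With any 1 library left out, the adjusted p lay between 0.0114 and 0.138, and the call was lost in each case except H/R-LV-BMAL1 1. Without that library 5 of the 3p arms were called higher, namely miR-23a-3p, miR-23b-3p, miR-27a-3p, miR-27b-3p and miR-24-3p. The calls over all miRNAs rose as well, to 139 of 1738 tested.

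The other abundant 3p arms had similar values to miR-27b-3p without passing the test. In CPM scaled by TMM, miR-23a-3p was at 4085 ± 465 in normal culture, 3456 ± 979 after H/R and 7766 ± 1871 after H/R with BMAL1 (SD, n = 3). miR-24-3p, in the same order, was at 3787 ± 374, 2817 ± 870.2 and 6091 ± 1428. Each of these arms overlapped between the first 2 groups and lay higher in every BMAL1 library. miR-23a-3p had a log2 fold change of 1.17 (adjusted p = 0.0607 from edgeR), miR-23b-3p 1.14 (adjusted p = 0.0681) and miR-24-3p 1.11 (adjusted p = 0.0681). miR-27a-3p had 1.42 with a wider standard error of 0.433 (adjusted p = 0.081). Its TMM-scaled level was 10.7 ± 4.58 CPM with the control virus and 29.0 ± 11.4 CPM with BMAL1 (SD, n = 3). The 5p arms lay on both sides of 0. miR-27a-5p had 0.86 and miR-27b-5p 0.54, whereas miR-24-1-5p had -1.40 and miR-24-2-5p -1.22, all at an adjusted p over 0.05. Groups without overlap were found for 6 arms that were higher and 2 that were lower, beside 29.5% of all miRNAs, 14.7% higher and 14.9% lower. The median of the 9 arms was 1.11, against -0.04 for all 1682 miRNAs and 1.01 for the 81 miRNAs at 1000 CPM and above.

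Levels across these groups depended on the scaling. With CPM of total UMIs, the median log2 fold change of all miRNAs moved from -0.04 to -0.87, and that after H/R from 0.01 to 0.36. miR-27b-3p kept its direction and its call, at 0.47 (adjusted p = 0.0163 from edgeR). With RLE factors it had 1.39 (adjusted p = 0.0607 from edgeR) and with upper quartiles 1.32 (adjusted p = 0.101 from edgeR), so both lost the call. With total UMIs miR-24-2-5p was called lower, at -2.09 (adjusted p = 0.0164 from edgeR). miR-27a-3p stood at 0.56, and its ranges of 9.91 to 18.7 CPM in H/R-LV-NC and 15.8 to 22.7 CPM in H/R-LV-BMAL1 then overlapped. miR-27a-5p and miR-27b-5p changed sign, to -0.05 and -0.23. CPM are shares of the miRNA UMIs of a library, so neither the number of vesicles nor the amount of a miRNA in each vesicle can be read from them.

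**Figure D4:**
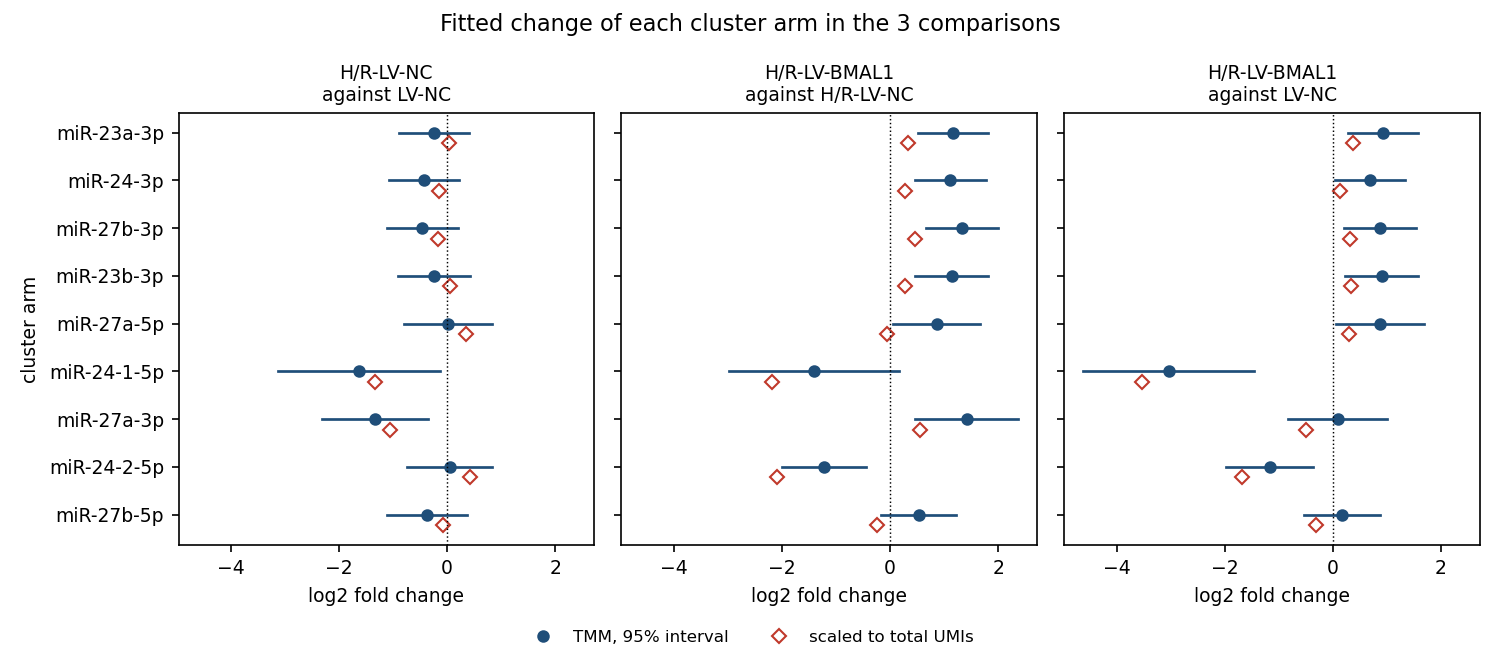
Fitted log2 fold changes of the 9 arms in the 3 comparisons, from edgeR with TMM (filled circles, lines are 95% intervals) and with scaling to total UMIs (open diamonds). In the comparison of BMAL1 with the control virus under H/R the 3p arms lie right of 0 under both scalings, from 1.11 to 1.42 with TMM, and the 5p arms of miR-24-1 and miR-24-2 lie left of it.

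Within libraries, the 5p/3p ratio of miR-24-2 fell, 1 of the 6 hairpins to pass the test, beside 2.83% of all hairpins, 1.41% lower. miR-24-2-5p had 16, 22 and 25 UMIs with the control virus and 19, 12 and 16 with BMAL1. miR-24-3p had 5108, 2613 and 5346 UMIs and then 14318, 16992 and 16642. The 5p counts were thus of the same size in both groups although every BMAL1 library was deeper than every control-virus library. Depth and BMAL1 therefore cannot be told apart in this comparison, and the part of depth in the ratio was not tested. Per 100 UMIs of miR-24-3p there were 0.313, 0.842 and 0.468 of miR-24-2-5p and then 0.133, 0.0706 and 0.0961, with no overlap. The log2 difference was -2.34 (standard error 0.420, adjusted p = 0.0194 from edgeR), or 0.197 times with a 95% interval of 0.104 to 0.375. The adjusted p was 0.0713 when H/R-LV-NC 2 was left out and 0.0622 when H/R-LV-NC 3 was, both from edgeR. It was 0.0976 when H/R-LV-BMAL1 2 was left out and 0.0846 when H/R-LV-BMAL1 3 was, with log2 differences of -2.40 to -1.97.

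The miR-24-1 hairpin had a difference of like size, which shares the counts of miR-24-3p. miR-24-1-5p had 29, 19 and 22 UMIs with the control virus and 18, 19 and 10 with BMAL1. Its ratio to miR-24-3p had a log2 difference of -2.50 (standard error 0.660, adjusted p = 0.0849 from edgeR), and it was called without LV-NC 3, at an adjusted p of 0.0237 from edgeR. The arm ratios of miR-27b, miR-27a, miR-23a and miR-23b had log2 differences of -0.74, -0.60, -1.20 and -0.57, none called. Groups did not overlap for 4 of the 6 hairpins, all of them lower, beside 26.4% of all hairpins, 12.7% lower.

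In 5 of the 6 hairpins the 5p arm is the rarer one. The log2 change of the rarer over the more abundant arm under BMAL1 had a median of -0.97 over the 6 cluster hairpins, -0.16 over all 637 hairpins and -0.63 over the 63 hairpins whose arms were at least 30 times apart. The sign was thus the same in the wider sets, which include cluster hairpins. For H/R-LV-NC and LV-NC these medians were -0.48, 0.04 and 0.11.

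The balance of cluster a against cluster b was not called different under BMAL1. Of the 4 paralog ratios 0 passed edgeR's test, 0 had an unadjusted p under 0.05, limma on log2 ratios called 0 and 0 separated the groups. Of all pairs 1.57% were called, 17.3% had an unadjusted p under 0.05 and 28% were without overlap. miR-27a-3p had 0.50, 0.710 and 0.614 UMIs per 100 of miR-27b-3p with BMAL1, inside the range with the control virus. The fitted log2 difference was 0.10 (1.07 times, 95% interval 0.711 to 1.61, adjusted p = 0.944 from edgeR), so a gain of miR-27a-3p over miR-27b-3p above 1.61 times lies outside this interval. The share of miR-27a-3p in the miR-27 3p arms was 0.604% ± 0.104 (SD, n = 3) in H/R-LV-BMAL1. The ratio of miR-23a-3p to miR-23b-3p had a log2 difference of 0.05, with a 95% interval of -0.18 to 0.29. miR-27a-3p per 100 of miR-23a-3p was 0.363 ± 0.0638 in H/R-LV-BMAL1 and overlapped H/R-LV-NC. The ratio of miR-27a-5p to miR-27b-5p had 0.26 and that of miR-24-1-5p to miR-24-2-5p -0.17, with wide 95% intervals of -0.77 to 1.29 and -1.94 to 1.61.

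The third comparison, of H/R-LV-BMAL1 with LV-NC, shares its samples with both others and sets the BMAL1 exosomes beside normal culture. Of the 9 arms 0 were called by edgeR, beside 0.238% of all miRNAs, and 3 by DESeq2, beside 146 miRNAs. An unadjusted p under 0.05 in edgeR was reached by 7 of the 9 arms and by 23.4% of all miRNAs. miR-27a-3p was at 29.0 ± 11.4 CPM scaled by TMM against 27.3 ± 6.87 (SD, n = 3), a log2 fold change of 0.09 that turned to -0.49 with total UMIs. miR-23a-3p, miR-23b-3p and miR-27b-3p had 0.93, 0.90 and 0.88, and miR-24-1-5p had -3.04 (adjusted p = 0.068 from edgeR), a group difference that includes LV-NC 3 with its 137 UMIs. Without that library it had -1.40. Groups without overlap were found for 4 arms that were higher and 2 that were lower, beside 25.6% of all miRNAs, 14.1% higher and 11.5% lower.

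Among the ratios, miR-27a-3p over miR-27b-3p had a log2 difference of -0.79 (0.577 times, 95% interval 0.387 to 0.859, unadjusted p = 0.012 and adjusted p = 0.104 from edgeR) with no overlap, the 1 of 4 paralog ratios that separated the groups, beside 29.5% of all pairs, 14.2% lower. Of the 4 ratios 0 were called by edgeR and 0 by limma on log2 ratios, beside 4.33% of all pairs, and 1 had an unadjusted p under 0.05, beside 22% of all pairs. The 5p/3p ratio of miR-27a had 0.79 (1.73 times, 95% interval 0.864 to 3.47) and did not overlap, above that of LV-NC in every library. The 5p/3p ratios of miR-23b, miR-24-1 and miR-24-2 had -1.25, -3.10 and -1.80, each at an adjusted p of 0.0776 from edgeR. Of the 6 hairpins 0 were called by edgeR and 0 by limma on log2 ratios, beside 0.157% of all hairpins, and 4 had an unadjusted p under 0.05, beside 18.1% of all hairpins. Groups without overlap were found for 1 that was higher and 3 that were lower, beside 26.5% of all hairpins, 14.6% higher and 11.9% lower. Over the 6 hairpins the rarer arm over the more abundant one had a median of -1.40, against -0.15 over all hairpins and -0.56 over those at least 30 times apart.

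The arms of one cluster were also unlike in how they varied from library to library. Over the 9 libraries, log2 CPM scaled by TMM of miR-23a-3p and miR-23b-3p had a Pearson r of 0.996, and miR-23a-3p with miR-24-3p and miR-27b-3p had 0.981 and 0.962. miR-27a-3p, from the same cluster as miR-23a-3p, had 0.708 with it, 0.565 with its own 5p arm and 0.802 with miR-27b-3p. With miR-23a-3p, miR-24-2-5p had an r of -0.845 and miR-24-1-5p of -0.456. Among 703 miRNAs with a mean of at least 50 UMIs, those most like miR-27a-3p were miR-7040-3p (r = 0.955), miR-6418-5p (0.917), miR-1224-3p (0.913), let-7b-5p (0.907) and let-7b-3p (0.907). Those most like miR-27b-3p were miR-140-5p (0.997), miR-101a-3p (0.996), miR-30a-3p (0.987), miR-196a-5p (0.985) and miR-21b (0.984). These values describe 9 libraries that share group, depth and scaling, and miR-27a-3p rests on 8 to 89 UMIs a library.

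The remaining arms of the clusters and a miRNA with an overlapping seed were taken as context. miR-23a-5p and miR-23b-5p, the rarer arms of the miR-23 hairpins, were called in 0 of the 3 comparisons, with log2 fold changes of 0.01 and 0.48 under BMAL1. miR-128-3p, whose seed CACAGUG overlaps that of the miR-27 3p arms by all but 1 base, was at 532 ± 226 CPM scaled by TMM with the control virus and 2218 ± 1757 with BMAL1 under H/R (SD, n = 3), with a log2 fold change of 2.06 (adjusted p = 0.0609 from edgeR).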

How the data were processed

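Exosomes of TCMK-1 cells were collected by ultracentrifugation, and their miRNA was sequenced with QIAseq UMI libraries, 9 in all, in 3 groups, assigned from the sample titles. The authors deposited UMI counts for each mature miRNA and CPM, which equal UMIs divided by each library's total. Of tools, the notes on processing by the submitters list edgeR, Bowtie 1.3.0 and cutadapt 2.7, without their roles, and no source used here names a genome build. The deposited positions of 8 of the 9 arms equal those of RefSeq on GRCm38.p6.

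The counts were analysed with edgeR 4.0.16 in R 4.3.3 after filterByExpr, which kept 1682 miRNAs with 99.9% of the UMIs. One quasi-likelihood fit with TMM took all 9 libraries, and calls were made at an adjusted p under 0.05 (Benjamini-Hochberg over all miRNAs tested). Ratios were tested by edgeR on both counts side by side, with each library as its own block, over 637 hairpins and 254 pairs of arms with the same number and different letters or loci. Shares and ratios of counts carry exact Clopper-Pearson 95% intervals, which cover counting error only. The partner ratios used a pseudocount of 0.5 on the log2 scale. Every pair of libraries within a group differed by more than counting noise (chi-square per degree of freedom 10.3 to 176). The steps were tested on simulated data. The alternatives were RLE, upper quartile and total-UMI scaling, a minimum mean of 50 UMIs, no filter, DESeq2 1.42.0, limma 3.58.1 (voom, or log2 ratios), only the groups compared, a replicate block, and leaving out each library. Figures were drawn with matplotlib 3.10.9, and tables made with scipy 1.17.1, numpy 2.4.6 and pandas 2.3.3 in Python 3.11.15. All 9 arms are named, with the 5 miRNAs most like miR-27a-3p and miR-27b-3p and the lowest and highest nearly identical pairs; other names in the text are context from fixed lists, except miR-10b-5p, chosen after its value was seen. The members, lists and tests were chosen with earlier results of these data known.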

Additional observations from a re-analysis of the deposited data

How the results depend on the processing

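In H/R-LV-NC against LV-NC, 0 of the arms, hairpins and paralog ratios tested were called under each alternative run. At a minimum mean of 50 UMIs only 5 of the 9 arms, 1 of the 6 hairpins and 1 of the 4 paralog ratios could be tested. With BMAL1 under H/R (against the control virus), where miR-27b-3p was called, 0 arms were called with RLE factors, upper quartiles, no filter, only the compared groups or the replicate block, 2 with total UMIs (1 higher, 1 lower) and 6 with DESeq2 (5 higher, 1 lower). Leaving out a library gave 0 to 5. Against LV-NC, total UMIs called 1 arm (miR-24-1-5p lower) and DESeq2 3. The calls over all miRNAs moved as well, from 40 under BMAL1 to 0 with RLE factors, upper quartiles, no filter, only the compared groups or the replicate block, 72 at a minimum mean of 50 UMIs, 248 with DESeq2, 518 with total UMIs and 139 without H/R-LV-BMAL1 1 (0 when any other single library was left out). Against LV-NC, 4 became 105 with total UMIs and 146 with DESeq2, 10 at a minimum mean of 50 UMIs, 1 to 3 with the other alternatives but voom (5), and 0 to 66 when a library was left out, 66 without H/R-LV-BMAL1 1 and 0 without LV-NC 1 or LV-NC 2. For the arm ratios under BMAL1, where miR-24-2 was called, 2 hairpins were called with only the compared groups, beside 8 over all hairpins. These were miR-24-1 and miR-24-2, which share the counts of miR-24-3p. The replicate block called 0 (adjusted p = 0.0514 for miR-24-2 from edgeR), beside 7 over all hairpins. At a mean of at least 50 UMIs only miR-23a of the 6 hairpins could be tested, so miR-24-2 could not be called. miR-23a was not called, beside 19 calls over all hairpins. Leaving out a library gave 0 to 2 called cluster hairpins, with 2 when LV-NC 3 was left out, beside 12 over all hairpins. It gave 0 without H/R-LV-NC 2, H/R-LV-NC 3 or H/R-LV-BMAL1 3, beside 0 over all hairpins, and 0 without H/R-LV-BMAL1 2, beside 2. The paralog ratios tested had 0 calls under each alternative, in all comparisons. The cause of these shifts was not tested. Libraries with the same replicate number were not seen to be more alike. Their deviations from group means had correlations of -0.16 to 0.13, over 0.1 in 1 of 9 pairs. Libraries with different numbers had -0.20 to 0.21, over 0.1 in 2 of 18 pairs. Such low values cannot show whether same-numbered libraries shared a culture or day.

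Directions of arms changed as follows. With total UMIs, miR-23a-3p and miR-23b-3p after H/R were at 0.045 and 0.060, miR-27a-5p and miR-27b-5p under BMAL1 at -0.052 and -0.23, and miR-27a-3p and miR-27b-5p against LV-NC at -0.49 and -0.31. After H/R, miR-27a-5p was at -0.034 with RLE factors, -0.033 with DESeq2, -0.0080 with voom and -0.0043 with the replicate block, and miR-24-2-5p at -0.014 with RLE factors and -0.013 with DESeq2. Leaving out a library gave signs on both sides of 0 for miR-27a-5p (-0.25 to 0.17) and miR-24-2-5p (-0.18 to 0.29) after H/R, for miR-27a-3p (-0.25 to 0.35) and miR-27b-5p (-0.023 to 0.34) against LV-NC, and for the arm ratios after H/R of miR-27b (-0.098 to 0.28), miR-23a (-0.69 to 0.18) and miR-24-1 (-1.18 to 0.38), the last pair without LV-NC 3. It did the same for miR-23a-3p over miR-23b-3p after H/R (-0.049 to 0.019) and against LV-NC (-0.0035 to 0.058), and under BMAL1 for the ratios of miR-27a-3p to miR-27b-3p (-0.048 to 0.36), miR-27a-5p to miR-27b-5p (-0.011 to 0.64) and miR-24-1-5p to miR-24-2-5p (-0.50 to 0.18). After H/R, miR-27a-3p over miR-27b-3p stayed between -1.16 and -0.75, and the 5p/3p ratio of miR-27a between 1.15 and 1.75. Counts of 8 to 89 UMIs limit what can be seen of miR-27a-3p, and counts of 9 to 50 what can be seen of miR-24-2-5p and miR-27b-5p.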
